A study of Homo sapiens with 34 samples.

Results

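The 42 genes described here encode the machinery that licenses, fires and copies replication origins, together with nucleotide-synthesis enzymes and the regulators of the passage from G1 into S phase. They were chosen by gene symbol, and all 42 were found among 29324 genes with at least 1 intron measured and among the 12081 genes that had enough reads to be tested. They were followed across 34 RNA-seq libraries of hTERT RPE-1, an immortalised human retinal pigment epithelial cell line, in 17 groups of 2 biological duplicates, each group transduced with 1 hybrid guide RNA (hgRNA). An hgRNA joins a Cas9 guide and a Cas12a guide in 1 transcript, so that cutting at both sites can delete the stretch between them. The labels name no cell clone, and each library is therefore read as a transduced population.

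Every group, controls included, received its hgRNA by lentivirus. Puromycin (20 µg/ml) was applied for 72 h, and cells were collected 4 days later, when they covered 50 to 70% of the dish. The controls were 2 hgRNAs with both guides in intergenic DNA (4 libraries). Deletions within introns were made in DDX5 (hgRNA 1 and 2), in FNBP4 (hgRNA 1 and 2) and in HNRNPD (hgRNA 1 alone). Deletions spanning an exon with a premature termination codon (a PTC exon, whose inclusion marks an mRNA for decay) were made in DDX17 (hgRNA 1 and 2), HDAC7 (hgRNA 1 and 2) and FNBP4 (hgRNA 3 and 4). Gene knockouts of DDX5, DDX17, FNBP4 and HDAC7 used 1 hgRNA each, with an exonic Cas9 guide of the TKOv3 library and an intergenic Cas12a guide, except that the label of the HDAC7 knockout gives the Cas9 guide of the FNBP4 knockout. Both HDAC7 deletion hgRNAs share their Cas9 guide, as do FNBP4 hgRNA 2 (intron) and hgRNA 3 (PTC exon). Among the 34 libraries, only those of FNBP4 hgRNA 3 and 4 carry an added tag (enr) in their library names, which the names do not explain.

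DDX5 and DDX17 are DEAD-box RNA helicases, HDAC7 is a class IIa histone deacetylase, HNRNPD binds AU-rich RNA, and FNBP4 is a formin-binding protein. In G1, the origin recognition complex (ORC), CDC6 and CDT1 load the MCM helicase onto DNA. In S phase, kinases, CDC45 and the GINS complex turn the loaded helicase into an active one, primase and the replicative polymerases follow, and PCNA, loaded by replication factor C (RFC), holds the polymerases on the template. Transcription of most of these genes is known to be driven by E2F factors when a cell commits to S phase, so their summed RNA in a culture follows both the share of cycling cells and the RNA per cell. In bulk RNA fewer cells in G1/S and less RNA per cell cannot be told apart.

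Promoters of 5 members are shown because they display the E2F-type motif in different number and position. They are the 100 bases before the RefSeq transcription start on GRCh38.p14, written 5′ to 3′ on the gene's strand, with capitals marking an 8-base E2F-type match (TTTCCCGC, TTTGGCGC, TTTCGCGC or TTTGCCGC, either strand). E2F1 (chr20:33686386-33686485, minus strand) encodes the activating E2F factor itself, CDT1 (chr16:88803689-88803788, plus strand) a licensing factor, MCM6 (chr2:135876444-135876543, minus strand) a helicase subunit and PCNA (chr20:5126623-5126722, minus strand) the sliding clamp. MCM10 (chr10:13161458-13161557, plus strand), which helps activate the loaded helicase, is the example without a match.
E2F1: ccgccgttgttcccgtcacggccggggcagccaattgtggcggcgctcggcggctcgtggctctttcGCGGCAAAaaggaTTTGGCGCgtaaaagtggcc
CDT1: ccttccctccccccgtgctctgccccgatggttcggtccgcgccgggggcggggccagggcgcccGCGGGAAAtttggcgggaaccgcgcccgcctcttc
MCM6: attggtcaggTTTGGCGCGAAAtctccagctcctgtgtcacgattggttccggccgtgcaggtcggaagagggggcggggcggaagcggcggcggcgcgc
PCNA: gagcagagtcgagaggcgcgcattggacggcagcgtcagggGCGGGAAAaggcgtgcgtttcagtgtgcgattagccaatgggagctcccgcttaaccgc
MCM10: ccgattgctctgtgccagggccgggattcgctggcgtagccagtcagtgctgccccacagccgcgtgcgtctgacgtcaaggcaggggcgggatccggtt
The E2F1 window held 2 matches, the MCM6 window 2 that overlap, and CDT1 and PCNA 1 each. In windows of 300 bases, reaching past the start site, RefSeq sequence was matched for 36 of the 42 members, and 18 of these (50%) held an E2F-type match, against 908 of 27305 promoters of all genes (3.33%). The letters CCAAT stood in 21 of the 36 (58.3%, against 35.7% of all promoters), and TTTGAA, a core found in promoters of mitotic genes, in 2 (5.56%, against 15.4%). A match of letters is a description and not a binding site.

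Gene levels are in CPM, the usual depth-scaled read count, here of reads across the spliced junctions of each gene, after scaling and after removal of a smooth trend of each library on GC content and gene length. Libraries held between 12353936 and 20233610 such reads. The members drew from 32 reads in a library (FEN1, which has a single intron) to 5955 (MCM7), and counting noise is largest for FEN1. In 4 libraries the GC and length trend stood apart, with an SD of 0.219 to 0.362 (log2) against at most 0.16 in the other 30: control hgRNA 1 replicate 2, DDX17 deletion hgRNA 1 replicate 2, HDAC7 deletion hgRNA 1 replicate 2 and FNBP4 PTC exon hgRNA 3 replicate 1. Counts of members are therefore given with and without these 4. Counts from this and other alternative fits are given without the share of all genes called there. They show how far a count moves, and not whether members moved more than other genes. A gene was called higher or lower at an adjusted p under 0.05 (limma, Benjamini-Hochberg over 12081 genes), and all 10 comparisons with the controls share the same 4 control libraries.

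The edited genes themselves checked the labels only in part. DDX5 RNA was 150 ± 30.2 CPM (SD, n = 2) in its knockout against 564 ± 15 (n = 4) in the controls, a log2 difference of -1.93, and DDX17 RNA was 311 ± 24.8 against 432 ± 32.4 in its knockout (log2 -0.48). FNBP4 RNA in its knockout (32.8 ± 16.2 against 40.7 ± 3.09, adjusted p = 0.379, limma) and HDAC7 RNA in the libraries labelled HDAC7 knockout (187 ± 2.56 against 197 ± 15.2, adjusted p = 0.765) did not pass the test, and RNA level need not show a frameshift. Among the deletions, FNBP4 RNA was higher after the PTC exon deletion (122 ± 17.3, log2 1.58, adjusted p = 6.84e-06), DDX5 RNA was lower after its intron deletion (383 ± 17, log2 -0.56) and HDAC7 RNA was lower after its PTC exon deletion (154 ± 27, log2 -0.36). HNRNPD RNA was higher (305 ± 41.2 against 237 ± 14.7, log2 0.36, adjusted p = 0.0268), while DDX17 RNA after its PTC exon deletion (log2 0, adjusted p = 0.994) and FNBP4 RNA after its intron deletion (log2 0.28, adjusted p = 0.528) did not pass. Of the defining markers of mature pigment epithelium, TYR was at 0 in all 34 libraries and RPE65 stayed between 0 and 0.389 CPM before the corrections, while MITF (8.34 to 24.2), PAX6 (16.4 to 49.6) and the keratin KRT8 (444 to 885) were present.

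On the per-length scale of the authors' deposited table, the median control RPKM of the 42 members was 11.7, against 2 over all genes with a fold change there. MCM7 (68.1), PCNA (67), RRM2 (63), TYMS (60.7) and RPA1 (46) had the highest levels, and ORC1 (2.16), CCNE1 (2.51) and CDC7 (4.27) the lowest. Between the 2 control hgRNAs no member was called in either direction, as for all genes (0% lower and 0% higher), and 0 members reached an unadjusted p of 0.05 (limma), against 1.58% of all genes. The estimates still leaned one way, since 36 of 42 were lower with control hgRNA 2 than with hgRNA 1, by a median log2 of -0.06.

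**Figure D1:**
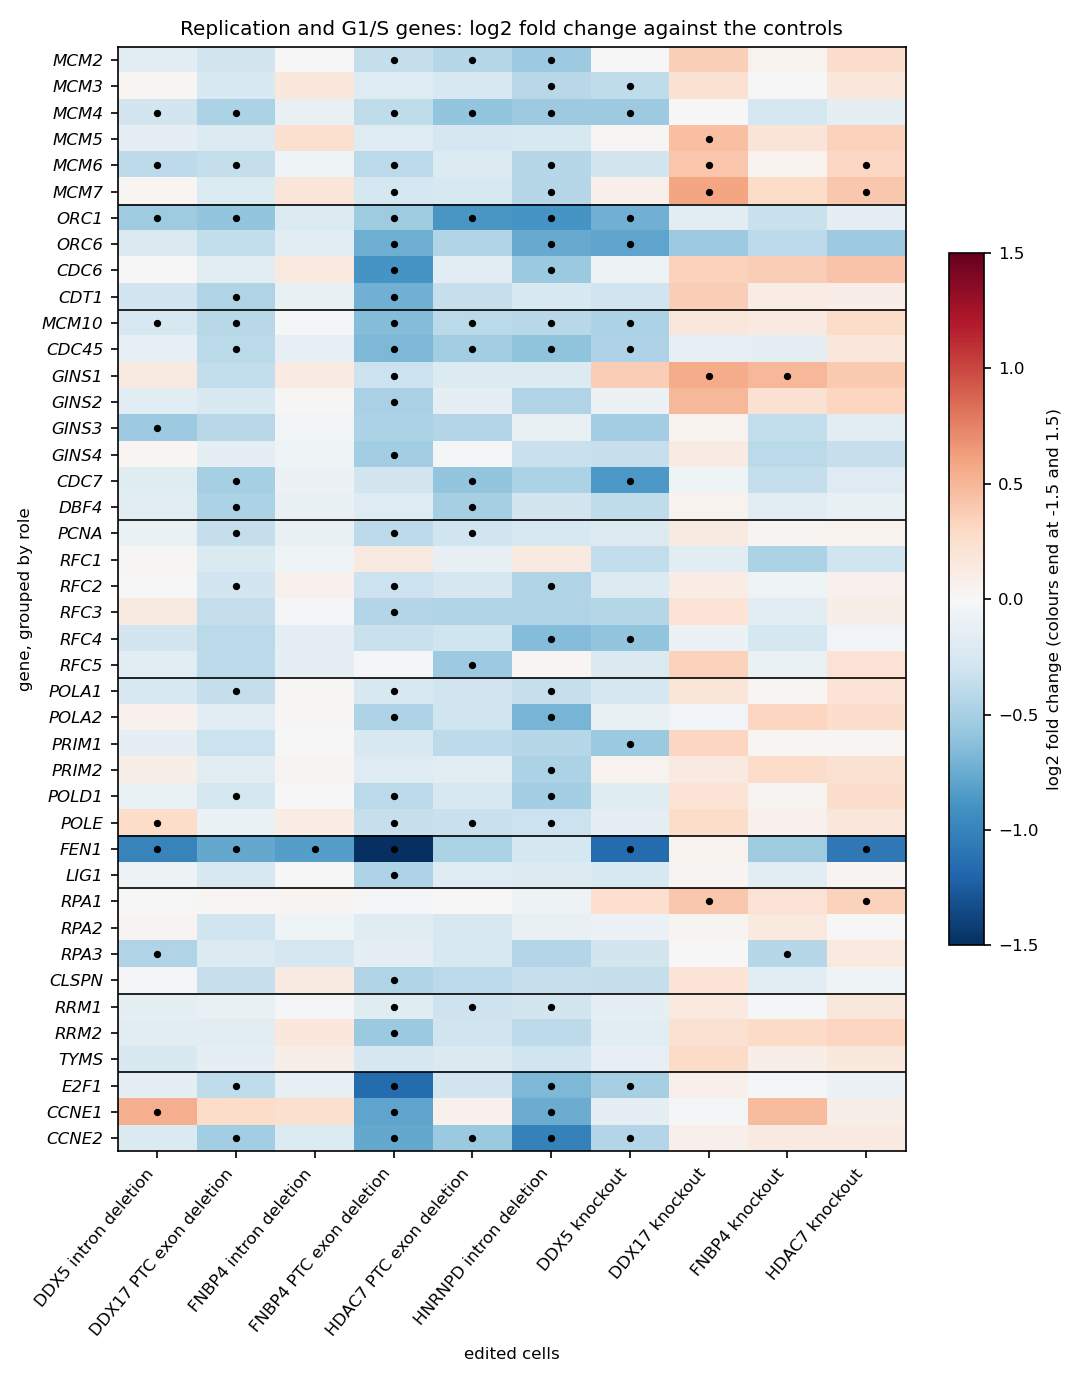
Heat map of the log2 difference of each of the 42 genes (vertical axis, ordered by role) in the 10 comparisons with the controls (horizontal axis); colour gives the size and direction on the log2 scale and a dot marks a gene called at an adjusted p under 0.05. The columns with most dots are the FNBP4 PTC exon deletion (28 lower) and the HNRNPD deletion (21 lower), and the DDX17 knockout holds the most genes called higher (5).

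By the median log2 of the members, the module was lowest after deletion of the FNBP4 PTC exon and after the HNRNPD intron deletion. This order of the groups was not tested. With the FNBP4 PTC exon deleted, 28 of 42 members fell and 0 rose (13.8% of all genes were called lower and 13.1% higher), with a median member log2 of -0.39. Over all genes the median lay between -0.03 and 0.02 in every comparison. The HNRNPD deletion lowered 21 and raised 0 (5.89% of all genes lower, 6.7% higher, median -0.42). Without the 4 libraries that stand apart the counts were 32 and 26. Smaller sets fell in the DDX17 PTC exon deletion (15, against 4.68% of all genes lower and 3.78% higher), the HDAC7 PTC exon deletion (12, against 1.89% and 2.09%) and the DDX5 knockout (12, against 6.46% and 8.11%), with 0 rising in each, and without the 4 libraries these were 9, 9 and 17 lower, the DDX5 knockout then with 1 higher.

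The remaining comparisons gave few calls. The DDX5 intron deletion lowered 7 members and raised 2, against a background of 11.5% lower and 8.56% higher, and without the 4 libraries 8 were lower and 2 higher. The FNBP4 intron deletion lowered 1 and raised 0 (3.44% and 2.33% of all genes), and the FNBP4 knockout lowered 1 and raised 1 (5.87% and 6.22%). The other direction appeared in the DDX17 knockout, with 5 members higher and 0 lower (1.8% of all genes higher, 2.33% lower). The libraries labelled HDAC7 knockout had 3 higher and 1 lower, near the shares of all genes (5.41% higher, 4.83% lower). Without the 4 libraries, 8 members were higher in the DDX17 knockout and 9 in the libraries labelled HDAC7 knockout, with 0 and 1 lower. The FNBP4 knockout then had 3 in each direction.

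**Figure D2:**
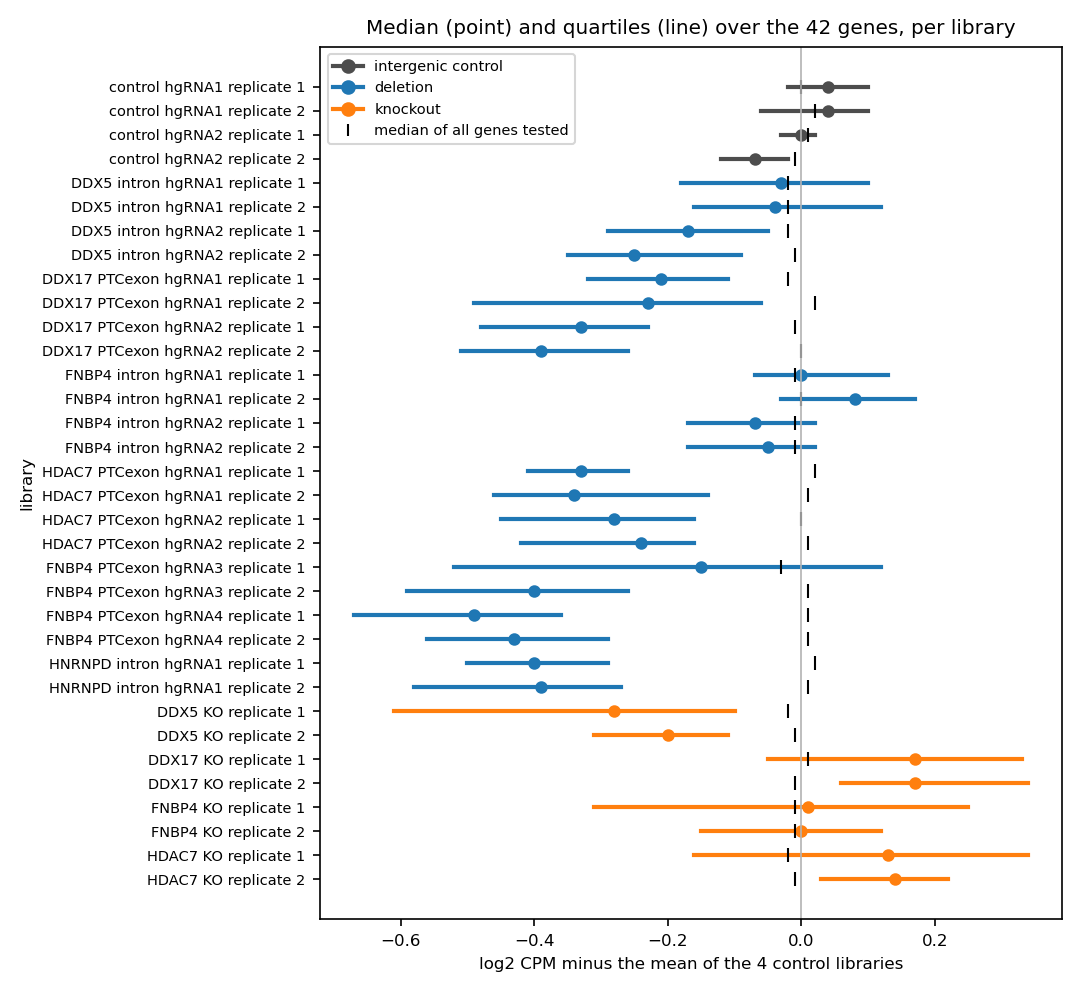
Median (point) and quartiles (line) over the 42 genes of the log2 level of each gene relative to the mean of the 4 control libraries, for each of the 34 libraries (vertical axis); black ticks are the median of all genes tested. The 4 control libraries have medians from -0.07 to 0.04, and the FNBP4 PTC exon libraries from -0.49 to -0.15.

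Library by library, the members' median log2 level against the control mean was -0.15, -0.40, -0.49 and -0.43 in the 4 FNBP4 PTC exon libraries and -0.40 and -0.39 in the HNRNPD libraries. It lay between -0.34 and -0.24 in the HDAC7 deletion, between -0.39 and -0.21 in the DDX17 deletion and at -0.28 and -0.20 in the DDX5 knockout. All of these were below the lowest control library (-0.07), the nearest being hgRNA 3 replicate 1 of FNBP4, 1 of the 4 that stand apart. The DDX17 knockout (0.17 in both libraries) and the libraries labelled HDAC7 knockout (0.13 and 0.14) were above the highest control (0.04), and the FNBP4 knockout (0.01 and 0) lay among the controls. In the DDX5 intron deletion, hgRNA 1 (-0.03 and -0.04) lay among the controls and hgRNA 2 (-0.17 and -0.25) below them. The FNBP4 intron libraries lay between -0.07 and 0.08. As a share of all spliced-junction reads counted, before scaling and trend removal, the members took 0.241 to 0.259% in the controls. The share was 0.18 to 0.219% with the FNBP4 PTC exon deleted, 0.189 and 0.198% in the HNRNPD libraries and 0.184 to 0.204% in the HDAC7 deletion. On this scale the HDAC7 deletion thus overlapped the other 2. The share was 0.199 to 0.22% in the DDX17 deletion, 0.196 and 0.205% in the DDX5 knockout and 0.279 to 0.28% in the DDX17 knockout.

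Among the G1/S regulators, E2F1 (chr20:33675683-33686404), the transcription factor that activates S-phase genes, had the smallest p of all members in a comparison with the controls. Its level was 13.9, 15.4, 13.9 and 12.7 CPM in the control libraries, 6.01 and 7.18 with FNBP4 hgRNA 3, and 7.22 and 4.87 with FNBP4 hgRNA 4. The highest PTC exon library was thus well below the lowest control. The means were 6.32 ± 1.12 and 14 ± 1.11 CPM (SD, n = 4 each), 2.22-fold lower, with a log2 difference of -1.15 (SE 0.131, adjusted p = 1.07e-06, limma). E2F1 also fell in the HNRNPD deletion (9.71 and 7.88 CPM, log2 -0.67, adjusted p = 0.00449, but 0.132 without the trend removal), the DDX5 knockout (9.98 and 9.66 CPM, log2 -0.50) and the DDX17 deletion (9.45 to 12.3 CPM, log2 -0.38, adjusted p = 0.0463). In the HDAC7 deletion its 9.48 to 13.3 CPM overlapped the controls and it was not called (log2 -0.29, adjusted p = 0.174).

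The E-type cyclins, which activate CDK2 for entry into S phase, fell in several of the same groups. CCNE2 was 12.6, 12.0, 15.8 and 10.7 CPM in the controls and 5.63 and 7.06 in the HNRNPD libraries, 2.01-fold lower with no overlap (log2 -1.01, SE 0.158, adjusted p = 0.000202). CCNE2 fell in 5 of the 10 comparisons, among them the FNBP4 PTC exon deletion (6.3 to 8.61 CPM, log2 -0.77, adjusted p = 3.67e-05). CCNE1 fell in the FNBP4 PTC exon deletion (3.83 ± 0.632 against 6.59 ± 1.03 CPM, log2 -0.79) and the HNRNPD deletion (3.97 ± 1.06, log2 -0.74, adjusted p = 0.0428). In the DDX5 intron deletion CCNE1 rose instead, to 8.32 to 10.8 CPM against 5.37 to 7.73 in the controls (log2 0.54, adjusted p = 0.0222).

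**Figure D3:**
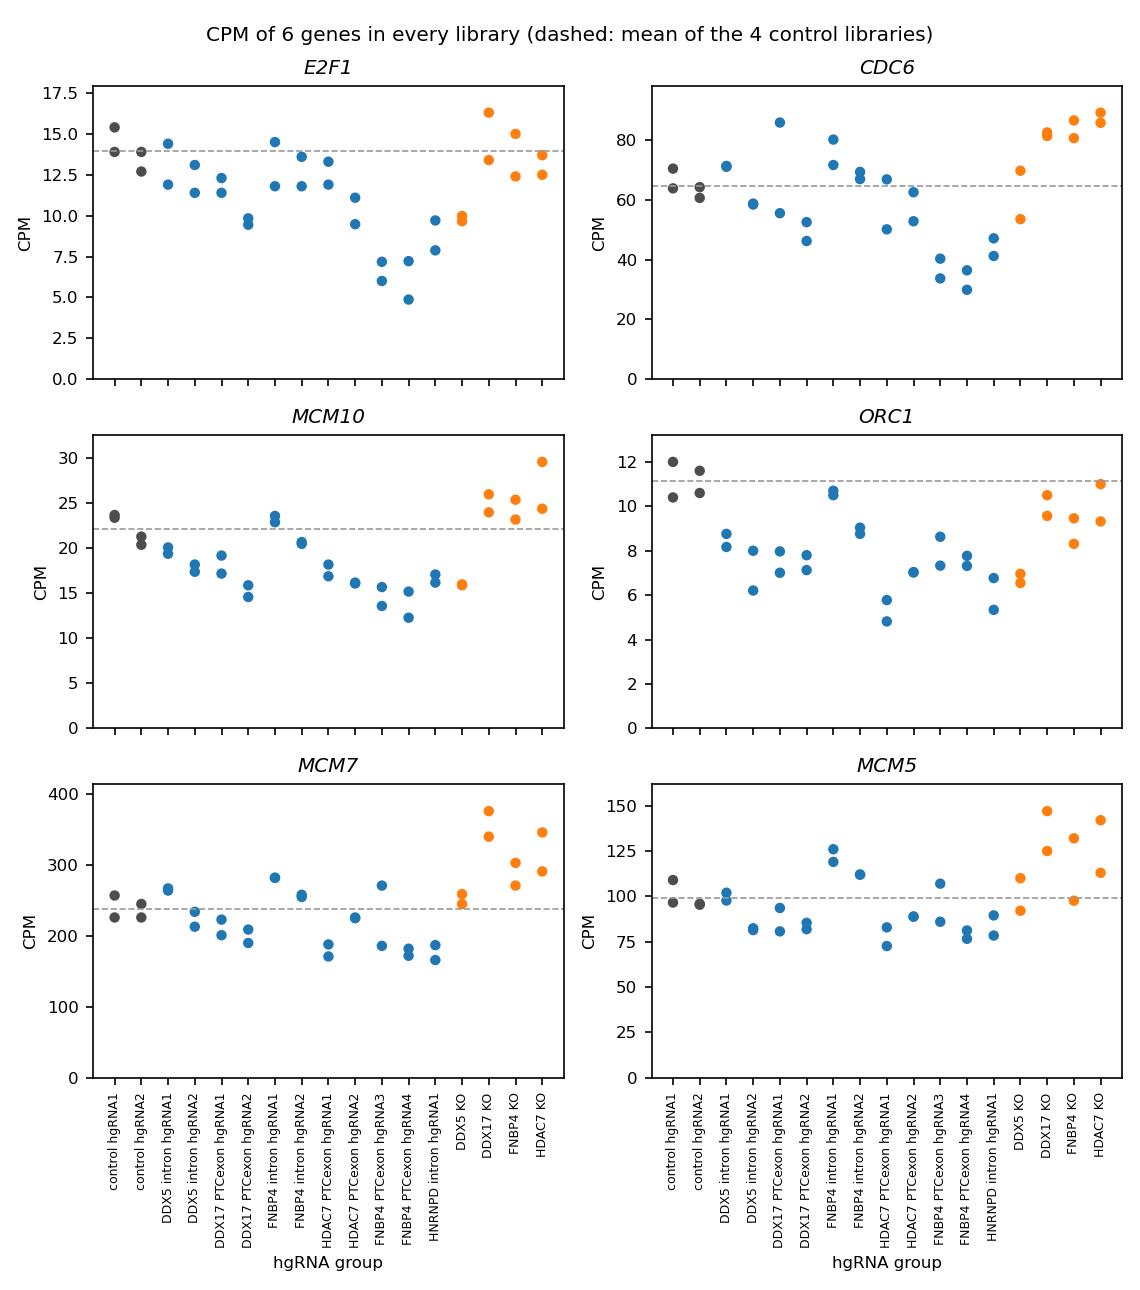
Level in CPM (vertical axis of each panel, starting at 0) of E2F1, CDC6, MCM10, ORC1, MCM7 and MCM5 in each library (points), by hgRNA group on the horizontal axis (grey controls, blue deletions, orange knockouts); the dashed line is the mean of the 4 control libraries. CDC6 lies at 29.9 to 40.3 CPM in the FNBP4 PTC exon libraries against 60.6 to 70.4 in the controls, and MCM7 at 340 and 376 CPM in the DDX17 knockout against 226 to 257.

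All 4 licensing genes fell with the FNBP4 PTC exon deleted, with a median log2 of -0.73. CDC6 (chr17:40287633-40304657), which recruits the helicase to ORC, was 63.8, 70.4, 64.2 and 60.6 CPM in the controls and 40.3, 33.7, 29.9 and 36.4 in the PTC exon libraries. The groups did not overlap, and the mean was 1.86-fold lower (35.1 ± 4.41 against 64.8 ± 4.11 CPM, log2 -0.89, SE 0.121, adjusted p = 1.1e-05, limma). CDT1, its partner in loading, was 13 ± 1.34 against 21.5 ± 3.54 CPM (log2 -0.72, adjusted p = 0.000477), and ORC6 5.59 ± 0.426 against 9.32 ± 0.707 CPM (log2 -0.73). CDC6 fell in the HNRNPD deletion as well (41.2 and 47.1 CPM, log2 -0.56, adjusted p = 0.0158). It was not called in the HDAC7 deletion (log2 -0.17, adjusted p = 0.488) or the DDX5 knockout (log2 -0.08, adjusted p = 0.733).

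ORC1 (chr1:52372829-52404459), the largest subunit of the origin recognition complex, fell in 6 of the 10 comparisons. It was 12.0, 10.4, 11.6 and 10.6 CPM in the controls, 5.78 and 4.82 with HDAC7 hgRNA 1 and 7.04 and 7.02 with HDAC7 hgRNA 2. Every HDAC7 deletion library was below every control, and the mean was 1.83-fold lower (6.17 ± 1.07 against 11.2 ± 0.764 CPM, log2 -0.87, SE 0.11, adjusted p = 7.39e-05). ORC1 was also lower in the HNRNPD deletion (6.77 and 5.34 CPM, log2 -0.88, adjusted p = 0.000204) and the DDX5 knockout (6.96 and 6.55 CPM, log2 -0.72, adjusted p = 0.000894). Its log2 difference in the DDX17 deletion was -0.59, in the DDX5 intron deletion -0.53 and, for the deleted PTC exon of FNBP4, -0.53 (adjusted p = 0.000682). These sizes were not tested against each other.

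Of the 6 subunits of the replicative helicase (the MCM proteins numbered from MCM2 to MCM7), 5 fell in the HNRNPD deletion, with a median log2 of -0.43, and 4 fell in the FNBP4 PTC exon deletion, with a median of -0.31. MCM4 was 97.4, 96.8, 95.7 and 93.2 CPM in the controls. It was 59.8 to 67.9 CPM in the HDAC7 deletion (log2 -0.59, adjusted p = 0.000301), 66.9 and 63.6 in the HNRNPD deletion (log2 -0.55) and 62.2 and 68.5 in the DDX5 knockout (log2 -0.55, adjusted p = 0.000981). MCM4 fell without overlap in these and in the DDX17, DDX5 intron and FNBP4 PTC exon deletions, 6 comparisons in all. MCM5 was lower in none of the 10: after the FNBP4 PTC exon deletion it was 107, 86, 76.6 and 81.2 CPM against 99.1 ± 6.29 in the controls (log2 -0.19, adjusted p = 0.165).

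Helicase subunits were also among the members that rose in knockouts. MCM7 (chr7:100092728-100101940) was 257, 226, 226 and 245 CPM in the controls and 376 and 340 in the DDX17 knockout, 1.5-fold higher with no overlap (358 ± 25.3, n = 2, against 239 ± 15.4, log2 0.59, SE 0.113, adjusted p = 0.00412). MCM6 (146 and 156 against 113 ± 6.59 CPM, log2 0.42) and MCM5 (147 and 125 against 99.1 ± 6.29 CPM, log2 0.45, adjusted p = 0.0328) rose there too, as did GINS1 (log2 0.56) and RPA1 (log2 0.41), which encode a helicase cofactor and the large subunit of the single-strand binding protein. In the libraries labelled HDAC7 knockout MCM7 (346 and 291 CPM, log2 0.41), MCM6 (log2 0.31) and RPA1 (log2 0.35) rose, and FEN1, the flap endonuclease of Okazaki fragments, fell (log2 -1.07). Of 14 other fits, these 4 calls were lost in 4 (MCM7), 7 (MCM6), 3 (RPA1) and 6 (FEN1). The DDX17 knockout calls were lost in 5 of 14 (MCM5), 3 (GINS1), 2 (MCM6), 2 (RPA1) and 1 (MCM7). The FNBP4 knockout raised GINS1 (log2 0.50, adjusted p = 0.0159) and lowered RPA3 (log2 -0.43, adjusted p = 0.0499). The RPA3 call was lost in 11 of 14 other fits, and GINS1 was not called without FNBP4 knockout replicate 1 (log2 0.34, adjusted p = 0.307) or with the libraries compared alone (log2 0.49, adjusted p = 0.0581). All 4 replicate 1 libraries of the knockouts had 0.965 to 1.21% of their junction reads spanning an exon and its intron, against 1.91 to 2.29% in replicate 2 and 1.86 to 3.04% in the other libraries, and the part of this in the knockout results was not tested. With the replicate of the knockouts as a block (limma), 5 members were called in the FNBP4 knockout (2 lower, 3 higher) in place of 2 and 10 in the libraries labelled HDAC7 knockout (2 lower, 8 higher) in place of 4.

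Of the 8 genes grouped under origin firing and assembly of the active helicase, 5 fell with the FNBP4 PTC exon deleted and 4 each in the DDX17 and HDAC7 deletions. MCM10 (chr10:13161554-13211104) was 23.7, 23.4, 21.3 and 20.4 CPM in the controls and 15.7, 13.6, 12.3 and 15.2 in the FNBP4 PTC exon libraries, 1.57-fold lower (log2 -0.65, SE 0.084, adjusted p = 6.42e-06). MCM10 fell in 6 of the 10 comparisons, down to 15.9 and 16 CPM in the DDX5 knockout (log2 -0.48, adjusted p = 0.00337). CDC45, which joins the helicase with GINS, fell in 5, with log2 differences of -0.67 in the FNBP4 PTC exon, -0.60 in the HNRNPD, -0.52 in the HDAC7 and -0.41 in the DDX17 deletion and -0.46 in the DDX5 knockout. CDC7 and DBF4, the kinase that fires origins and its activator, fell in the DDX17 deletion (log2 -0.50 and -0.47) and the HDAC7 deletion (log2 -0.59 and -0.50), but were not called in the FNBP4 PTC exon deletion. CDC7 also fell in the DDX5 knockout (4.4 and 8.54 against 10.4 to 11.7 CPM, log2 -0.86), where the duplicates lay far apart.

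At the fork, PCNA, the sliding clamp, fell in 3 comparisons, to 76.2 to 85.6 CPM with the FNBP4 PTC exon deleted (controls 95.8 to 110, log2 -0.39, adjusted p = 0.000852), to 66.2 to 88 CPM in the DDX17 deletion (log2 -0.36) and to 74 to 90.9 CPM in the HDAC7 deletion (log2 -0.30, adjusted p = 0.0365). Of the clamp loader genes RFC1 was called in none of the 10, and after the FNBP4 PTC exon deletion its estimate was positive (log2 0.14, adjusted p = 0.45). RFC2 fell there (log2 -0.32) and in the HNRNPD deletion (25.7 and 25.5 against 32.4 to 37.8 CPM, log2 -0.45). Among polymerase and primase genes 5 of 6 fell in the HNRNPD deletion, including POLD1, the catalytic subunit of polymerase delta (51.7 and 42.3 against 64.8 to 70.2 CPM, log2 -0.51, adjusted p = 0.00117, but log2 -0.31 and adjusted p = 0.448 without the trend removal), and POLA2, a subunit of polymerase alpha (log2 -0.70). POLE, the catalytic subunit of polymerase epsilon, fell in the FNBP4 PTC exon (log2 -0.34), HDAC7 (log2 -0.33) and HNRNPD (log2 -0.32) deletions and rose in the DDX5 intron deletion, at 95.4 to 115 CPM against 82.2 to 91.5 (log2 0.27, adjusted p = 0.0166).

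For Okazaki fragments, LIG1, the ligase that seals them, fell with the FNBP4 PTC exon deleted, to 48.6, 52.9, 48.7 and 55.8 CPM against 69.1 to 73.1 (log2 -0.46, adjusted p = 0.000653), and was called in no other comparison with the controls. Among the members FEN1 showed the largest difference in that deletion, 2.27 ± 0.183 against 7.66 ± 2.58 CPM (log2 -1.69, adjusted p = 2.51e-05), and fell in 6 comparisons, but its control libraries ranged from 5.19 to 10.7 CPM and it rests on 32 to 190 reads of 1 intron. In the authors' deposited table FEN1 went from 25.1 RPKM in the controls to 13.6 with FNBP4 hgRNA 3 and 13.4 with hgRNA 4 (log2 -0.89 and -0.91). For the other 5 groups of hgRNAs in which its junction reads were lower, the authors' deposited table gave FEN1 log2 values from -0.41 (DDX17 deletion hgRNA 2) to 0.34 (HDAC7 knockout), with no false discovery rate under 0.3. It gave -0.65 for the HNRNPD deletion (false discovery rate 0.00872), where the junction reads were not called (log2 -0.26, adjusted p = 0.557). RPA1 and RPA2, subunits of the single-strand binding protein, and TYMS, which makes thymidylate, were lower in none of the 10 comparisons. Of the ribonucleotide reductase genes, RRM2 was called lower in 1 of the 10 comparisons, the FNBP4 PTC exon deletion (80.6 to 90.9 against 116 to 144 CPM, log2 -0.56, adjusted p = 0.000516), and RRM1 fell there (log2 -0.18, adjusted p = 0.0499), in the HDAC7 deletion (log2 -0.31) and in the HNRNPD deletion (log2 -0.28).

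Counted over the 10 comparisons with the controls, 5 members were called lower in none (MCM5, RFC1, TYMS, RPA1 and RPA2) and 4 in 6 (MCM4, MCM10, ORC1 and FEN1), with CDC45 and CCNE2 in 5. The comparisons share their controls, so these counts are not independent. The same was not counted over all genes, so these counts do not show whether members recurred more than other genes. The 1 library of the FNBP4 PTC exon deletion that stands apart, hgRNA 3 replicate 1, was high for several members: TYMS lay there above all 4 control libraries (87.3 to 102 CPM) and at 66.2 to 72.1 in the other 3, PRIM1 21.1 against 11.2 to 12.1, CLSPN 53.9 against 31.4 to 35.3 and MCM7 271 against 172 to 186. With that library and the other 3 that stand apart left out, 32 members were lower in place of 28.

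The 2 hgRNAs of a target were set side by side. With FNBP4 hgRNA 3 alone 16 members were lower (11.3% of all genes lower) and with hgRNA 4 alone 27 (6.97%). The DDX17 hgRNAs gave 4 (1.72%) and 8 (2.07%), and the HDAC7 hgRNAs 6 (0.704%) and 4 (0.521%), with 0 higher in each of these 6. In the DDX5 intron deletion, hgRNA 1 gave 3 lower (8.2%) and 1 higher (6.2%), and hgRNA 2 gave 6 lower (4.76%) and 0 higher (3.91%). The FNBP4 intron hgRNAs gave 0 in both directions (1.5% and 0.886% of all genes lower). Tested directly, 0 members and 0 genes were called between the 2 hgRNAs of any of the 5 deletions made with 2 (limma), with 2 libraries on each side. An unadjusted p under 0.05 was reached by 9 members between the FNBP4 PTC exon hgRNAs (6.81% of all genes), 4 between the DDX17 hgRNAs (2.82%), 3 between the HDAC7 hgRNAs (5.29%), 3 between the DDX5 hgRNAs (2.96%) and 2 between the FNBP4 intron hgRNAs (1.22%). For E2F1, for example, the 2 FNBP4 hgRNAs gave 6.01 and 7.18 against 7.22 and 4.87 CPM.

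The 2 kinds of FNBP4 deletion could be compared without the controls. Between the PTC exon deletion and the intron deletion, 31 members were lower in the former and 0 higher (16.7% of all genes lower and 18.3% higher), with a median log2 of -0.42, and 33 were lower without the 4 libraries. CDC6 was 80.1, 71.6, 69.3 and 66.9 CPM in the intron deletion, 2.06-fold above the PTC exon deletion (log2 -1.04, SE 0.12, adjusted p = 4.46e-07). E2F1 was 11.8 to 14.5 CPM (log2 -1.03, adjusted p = 2.07e-06), RRM2 120 to 152 CPM (log2 -0.71, adjusted p = 1.63e-05) and CCNE1 7.2 to 8.25 CPM (log2 -1.03, adjusted p = 0.000148), none overlapping the PTC exon libraries. All 6 helicase subunits were lower in the PTC exon deletion, MCM5 included (112 to 126 against 76.6 to 107 CPM, log2 -0.43). FNBP4 hgRNA 2 (intron) and hgRNA 3 (PTC exon) share a Cas9 guide, and these 2 hgRNAs were not tested against each other. The 2 sides also differ in the tag of their library names, and its part was not tested.

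The DDX5 knockout was set against the other 3 knockouts, with which it shares the TKOv3 design. Its members were lower in 9 cases and higher in 0 (0.795% of all genes lower and 0.977% higher, median log2 -0.35), and all 42 estimates were negative. MCM10 was 15.9 and 16 CPM against 23.2 to 29.6 (log2 -0.67, SE 0.098, adjusted p = 0.00045), MCM6 91.6 and 94.2 against 115 to 156 (log2 -0.54, adjusted p = 0.0018) and MCM3 97 and 111 against 130 to 170 CPM (log2 -0.50, adjusted p = 0.00239). In all 3 the knockout libraries lay below every library of the other knockouts. With the replicate of the knockouts as a block (limma) 18 were lower and 0 higher. The count was 0 when only the knockout libraries were fitted, 19 without the 4 libraries, none of which is a knockout, 3 when no GC and length trend was removed, and it was 1 without DDX5 knockout replicate 1 and 5 without replicate 2. It was 4 without DDX17 knockout replicate 1, 3 without its replicate 2, 4 without FNBP4 knockout replicate 2 and 5 without HDAC7 knockout replicate 2.

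The counts depended on single libraries and on the trend removal. Without the removal 5 members were called in the DDX5 intron deletion in place of 9, 8 in the DDX17 deletion in place of 15 and 7 in the HDAC7 deletion in place of 12. Among the calls then lost were POLE and MCM4 in the DDX5 intron deletion (adjusted p = 0.0865 and 0.153), POLE in the HDAC7 deletion (0.179) and PCNA in the DDX17 deletion (0.0508). The FNBP4 PTC exon count fell from 28 to 18 without control hgRNA 2 replicate 1, the only library to move it by more than 1.5 times. With either HNRNPD library left out, 1 library stood for the deletion and was assumed to vary like the other groups. Most of the 21 calls were then lost, and the reason was not tested.

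For the DDX17 deletion, 8 members were called without control hgRNA 1 replicate 2, and 6 without DDX17 hgRNA 2 replicate 2 or control hgRNA 2 replicate 1. For the HDAC7 deletion the count of 12 became 6 without control hgRNA 1 replicate 1 or HDAC7 hgRNA 1 replicate 2, 4 without control hgRNA 2 replicate 1 or HDAC7 hgRNA 2 replicate 1, and 7 without control hgRNA 2 replicate 2. For the DDX5 intron deletion it became 5 without control hgRNA 2 replicate 1, and 4 with replicate 2 of control hgRNA 1 or of either DDX5 hgRNA left out. Among the knockouts, leaving out replicate 1 gave 1 call in place of 12 for DDX5 and 0 for DDX17 (in place of 5), FNBP4 (in place of 2) and HDAC7 (in place of 4). Single control libraries moved the last 2 as well: the FNBP4 knockout gave 1 without replicate 2 of either control hgRNA or replicate 1 of control hgRNA 2. The libraries labelled HDAC7 knockout gave 1 without control hgRNA 1 replicate 2 and 0 with replicate 1 of control hgRNA 2 left out. The 1 call of the FNBP4 intron deletion, FEN1, was lost without any of 5 libraries, which were control hgRNA 1 replicate 2, control hgRNA 2 replicate 1, FNBP4 hgRNA 1 replicate 1 and both replicates of FNBP4 hgRNA 2.

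**Figure D4:**
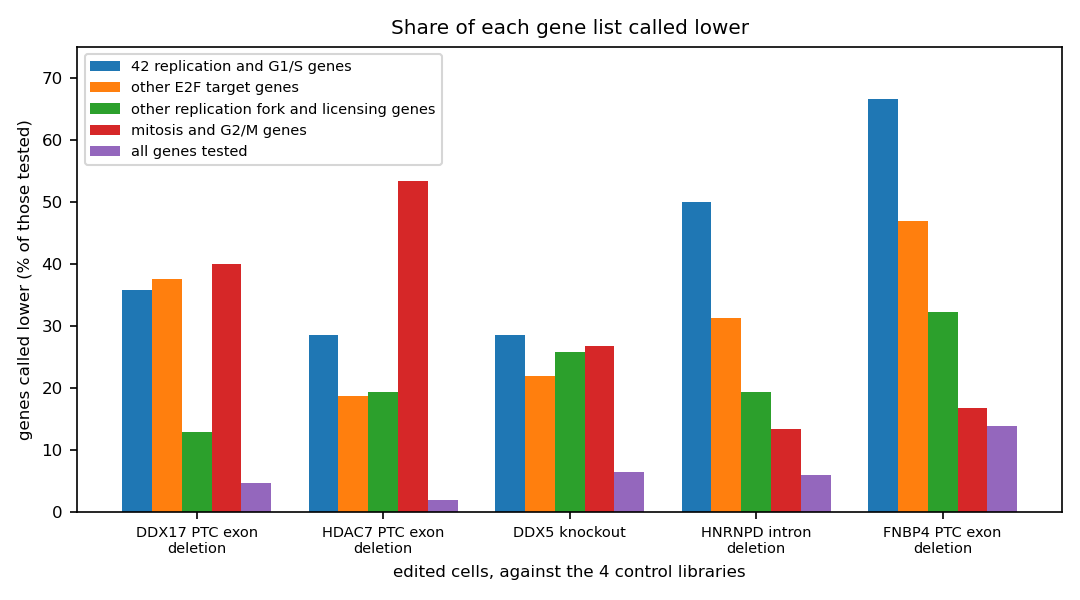
Share of tested genes called lower (vertical axis, percent, from 0) in 5 comparisons with the controls (horizontal axis), as bars for the 42 replication and G1/S genes, 3 other lists and all genes tested. In the HDAC7 deletion the mitosis and G2/M list has 16 of 30 called lower, above the 42 genes, and in the FNBP4 PTC exon deletion it has 5 of 30.

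Other cell-cycle lists gave context for the members. Of 32 other E2F targets, 15 fell with the FNBP4 PTC exon deleted, among them BRCA2 (log2 -0.68), 12 in the DDX17 deletion, 10 in the HNRNPD deletion, 7 in the DDX5 knockout and 6 in the HDAC7 deletion, with 0 rising in these 5. Of 31 other replication fork and licensing genes, 10 fell and 1 rose in the FNBP4 PTC exon deletion, including the clamp-loader subunit CHTF18 (log2 -0.60) and MCM8 (log2 -0.49), and 8 fell in the DDX5 knockout. Mitosis and G2/M genes were ordered differently. Of 30, 16 fell in the HDAC7 deletion, including CCNB2, a B-type cyclin (34.3 ± 5.61 against 54.7 ± 3.46 CPM, log2 -0.68, adjusted p = 0.00125), and UBE2C (log2 -0.52), 12 in the DDX17 deletion and 8 in the DDX5 knockout, but 5 in the FNBP4 PTC exon and 4 in the HNRNPD deletion. In the last 2 CCNB2 had positive estimates (log2 0.25 and 0.21), neither called. In the DDX17 knockout 5 mitotic genes rose and 0 fell, led by TPX2 (log2 0.43). These lists were not compared with each other by a test.

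Regulators of G1 upstream of the members moved most with the FNBP4 PTC exon deleted. CDKN1A (p21), an inhibitor of CDK2 that blocks entry into S phase, was 65.8 to 107 CPM with the FNBP4 PTC exon deleted against 234 to 319 in the controls, 3.09-fold lower (log2 -1.63, SE 0.147, adjusted p = 3.72e-08). CCND1 (cyclin D1) and its partner CDK6, which drive G1 progression, fell there too (493 ± 43.2 against 1230 ± 147 CPM, log2 -1.31, and 36.3 ± 1.41 against 78.5 ± 6.38 CPM, log2 -1.11). The HNRNPD deletion had the same 3 genes lower, CDKN1A at 112 and 144 CPM (log2 -1.11), CCND1 at 628 and 680 CPM (log2 -0.90) and CDK6 at 46.1 and 49.7 CPM (log2 -0.71). In the HDAC7 deletion CDKN1A rose (341 to 518 CPM, log2 0.54, adjusted p = 0.0355), as did CDK6 (log2 0.45, adjusted p = 0.0214). Of 23 G1/S regulators tested, 8 fell and 4 rose in the FNBP4 PTC exon, 5 fell and 1 rose in the HNRNPD and 1 fell and 2 rose in the HDAC7 deletion. Of the 15 nucleotide-supply genes, 5 fell and 3 rose in the FNBP4 PTC exon deletion (median log2 0.03), and 4 fell and 0 rose in the HNRNPD deletion (median -0.05). RRM2B, a ribonucleotide reductase subunit used outside S phase, fell in the FNBP4 PTC exon (31.9 ± 5.03 against 59.1 ± 5.44 CPM, log2 -0.90) and HNRNPD (log2 -0.75) deletions, as did CTPS1 (log2 -0.82 and -0.58), which makes CTP.

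Markers of the cell type moved as well, in different directions between the groups. Of 5 tested retinal pigment epithelium markers, 3 rose with the FNBP4 PTC exon deleted and 4 in the HNRNPD deletion, among them OTX2 (log2 0.64 and 0.91) and MITF (log2 0.49 and 0.59), and SERPINF1 rose from 0.446 ± 0.183 to 2.52 ± 0.463 CPM in the former (log2 2.58). OTX2 fell in 4 other comparisons, the DDX5 intron (log2 -0.51), DDX17 (log2 -0.80) and FNBP4 intron (log2 -0.60) deletions and the DDX5 knockout (log2 -0.77), SERPINF1 fell in the DDX5 intron deletion (log2 -1.63) and PAX6 in the FNBP4 knockout (log2 -0.52), and none of the 5 was called in the HDAC7 deletion. Of the keratins, KRT7 fell in the DDX5 intron (log2 -0.76) and DDX17 (log2 -0.46) deletions, and KRT8 rose in all 4 knockouts (log2 0.45 to 0.85) and in the HNRNPD (log2 0.48) and FNBP4 PTC exon (log2 0.33) deletions. Before the corrections, the 4 keratins summed to 846 to 1060 CPM in the FNBP4 PTC exon libraries, overlapping the controls (939 to 1090). Their sums were above the controls in the HNRNPD libraries (1170 to 1220) and the DDX5 knockout (1250 to 1530). The summed level of the 14 listed markers was 46.8 to 60.0 CPM before the corrections in the controls, 67.8 to 78.4 in the FNBP4 PTC exon and 76.3 to 81.5 in the HNRNPD libraries. It was 31.2 to 57.7 in the DDX17 deletion, 31.1 to 51.1 in the HDAC7 deletion and 46.1 to 47.9 in the DDX5 knockout, all groups in which members fell. The 10 markers of other cells summed to 0.555 to 1.01 on the same scale in the controls, to 1.02 to 1.61 in the FNBP4 PTC exon and to 1.66 to 1.73 in the HNRNPD libraries. Of these, NEUROD1 and SOX10 were at 0 in all 34 libraries and CD3E at 0 in 33. PTPRC was present in all 34 (0.199 to 1.13), and PECAM1 was at 0 in 3 and reached 0.777. Only 2 of the 10 were tested, of which 1 rose in each of the FNBP4 PTC exon, HNRNPD and DDX5 intron deletions. Neither fell in any comparison with the controls. The part of these markers in the members' levels was not tested.

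Members with and without an E2F-type match in the 300-base window were described side by side. With the FNBP4 PTC exon deleted, 15 of 18 with a match and 10 of 18 without were lower (median log2 -0.42 and -0.33), and against the FNBP4 intron deletion 17 of 18 and 10 of 18. In the HNRNPD deletion the counts were 9 and 10 of 18, in the DDX17 deletion 5 and 8, in the HDAC7 deletion 3 and 7 and in the DDX5 knockout 2 and 8. The order of the 2 classes thus differed between the deletions, and this difference was not tested. Of the promoters shown above, E2F1, CDT1, MCM6 and PCNA, with matches, and MCM10, without, all fell with the FNBP4 PTC exon deleted.

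Splicing within the members was examined in 13252 tests of their exon, splice-site and intron events over the 10 comparisons. None was called (adjusted p under 0.05 with a difference of at least 10 percentage points, limma), where 0.00671% of all events were called, 175 of those 183 in the DDX5 intron deletion. An unadjusted p under 0.05 was reached by 264 member events in the DDX5 intron deletion (19%, against 17.3% of all events), 291 in the FNBP4 PTC exon deletion (23.9%, against 12%), 285 in the HDAC7 deletion (23.9%, against 7.44%) and 318 in the HNRNPD deletion (23.7%, against 11%). It was reached by 155 in the DDX17 deletion (13.9%, against 7.26%) and 180 in the DDX5 knockout (13.3%, against 11.1%). The members' share was below that of all events in the FNBP4 intron deletion (6.42%, against 8.8%) and in the DDX17 (6.44%, against 7.89%), FNBP4 (7.52%, against 10.8%) and HDAC7 (10.2%, against 12.9%) knockouts. By its construction with a pseudocount of 1, the log ratio of an event with no excluding read follows the gene's own read number, so these shares also move with expression.

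In the DDX5 intron deletion 10 of 1392 member events passed the adjusted p but stayed under 10 points (0.718%, against 1.06% of all events at that adjusted p), and 9 of them were introns retained more. The members' share was thus below that of all events. In MCM2 the intron at chr3:127606818-127608381 was retained at 6.8 ± 1.27% against 0.971 ± 0.425% in the controls (SD, n = 4 each, adjusted p = 0.0161), and the intron at chr3:127606338-127606609 at 4.79 ± 1.27% against 0.718 ± 0.493%. Neither overlapped the controls, which reached 1.59% and 1.17%. POLA2 retained the intron at chr11:65295991-65297119 at 10.4 ± 3.01% against 3.07 ± 1.38% (adjusted p = 0.0496), and MCM7 retained 3 neighbouring introns, of which the one at chr7:100097949-100098140 was at 4.11 ± 0.236% against 1.6 ± 0.458%. The POLA2 event had as few as 20 reads in a library, the least allowed for a test. The share of junction reads spanning an exon and its intron over the whole library, 2.23 to 2.69% in these libraries and 2.11 to 2.57% in the controls, overlapped.

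The authors' deposited table counts the same libraries in another way, by hgRNA and with replicates combined. In the authors' deposited table the members lower numbered 21 with FNBP4 hgRNA 3 (8.45% of all genes lower at a false discovery rate under 0.05), 24 with hgRNA 4 (4.02%) and 21 in the HNRNPD deletion (2.73%), with 0 higher in each. The same table called fewer members lower in the other groups. These were 0 with DDX17 hgRNA 1 (0.873%) and 4 with hgRNA 2 (0.974%), and 6 with HDAC7 hgRNA 1 (0.573%) and 1 with hgRNA 2 (0.097%). They were 4 in the DDX5 knockout (2.67%) and 4 with hgRNA 2 of the DDX5 intron deletion (3.3%). The authors' table had 6 higher in the DDX17 knockout (0.67% of all genes higher) and 4 in the libraries labelled HDAC7 knockout (2.09%), with 0 lower. It had 2 higher in the FNBP4 knockout (3.42%) and 1 with hgRNA 1 of the DDX5 intron deletion (3.13%), with 0 lower. Neither FNBP4 intron hgRNA had a member called. E2F1 was 9.25 RPKM in the controls of the authors' deposited table, 3.96 with FNBP4 hgRNA 3 (log2 -1.30, false discovery rate 1.53e-07) and 4.48 with hgRNA 4 (log2 -1.20, false discovery rate 1.92e-06). Its false discovery rates in the authors' deposited table were 0.0801 for the HNRNPD deletion (log2 -0.57), 0.321 for the DDX5 knockout (log2 -0.37), and 1 and 0.331 for the DDX17 deletion hgRNAs, 3 comparisons in which its junction reads were called lower. MCM4 shows a limit of the deposited values: with hgRNA 3 its RPKM was 51.2 against 32.1 in the controls while its log2 fold change was -0.46, and such opposite signs occurred for 2 of 42 members with that hgRNA. Over the 15 groups of the authors' deposited table the number ran from 0 of 42 (FNBP4 hgRNA 4) to 11 (hgRNA 1 of the DDX5 and of the FNBP4 intron deletion).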

How the data were processed

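Ribosomal-RNA-depleted stranded libraries of RPE-1 cells were analysed from the authors' deposited tables. The deposited splicing table holds, per the file headers, percent-spliced-in and percent intron retention of each event, with quality strings that carry junction reads (read as other text). In these, 100% of the spliced reads of intron events were whole numbers. Columns of 2 further libraries were not used. The authors' deposited expression table gives RPKM, log2 fold changes and p-values with false discovery rates per hgRNA, with replicates combined. Salmon 1.10 and edgeR are named in the submitters' processing notes, with no settings stated in the sources at hand.

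No gene counts were used here, so spliced junction reads were summed per gene and library and tested with limma 3.58.1 (voom, R 4.3.3) in place of the count test. Genes needed 10 reads at median depth in 2 libraries and 15 in all. Libraries were scaled by trimmed means (TMM), and a spline trend (5 degrees of freedom) on GC content and length was removed from each. A single fit held all 34 libraries with a term for each of the 17 hgRNAs. P-values were adjusted by Benjamini-Hochberg over 12081 genes. Python 3.11.15 read the tables and scanned promoters. The scripts were tested on simulated data.

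Introns matched GENCODE v29 (GRCh38) in 99.98% of cases. Members and lists were chosen with earlier results of these data known. Described in full were up to 8 called members per comparison with the smallest p and the members of a role under description, and of other lists up to 4 called genes with the smallest p. FEN1, CCNB2 in deletions without a call, and the single-library values of hgRNA 3 were picked after their values were seen. In the single fit of all libraries, p-values rest on the spread between replicates of the same hgRNA, pooled over all hgRNAs. Variation between the hgRNAs of a target, or between the control hgRNAs, is not part of that spread. An SD over libraries of different hgRNAs does include it. Replicates are labelled biological duplicates. By the data alone, the numbers paired the knockouts: the replicate differences over genes correlated at 0.397 to 0.494 in all 6 of their pairs, and above 0.1 in 18 of the other 130 pairs of groups. Each adjusted p is from limma unless the authors' table is named. Alternatives were other scalings, filters, trend removal, control hgRNAs, library subsets, a replicate block and leaving out each library. Depth was between 12353936 and 20233610 junction reads.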

Additional observations from a re-analysis of the deposited data

Results flagged for a closer look

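Of 87 groups of 4 values examined, 4 held a value far from the other 3, where chance alone gives about 1 in 20. MCM5 was 108.5 CPM in control hgRNA 1 replicate 1, against 95.4 to 96.6 in the other 3 control libraries. The share of junction reads spanning an exon and its intron was 3.04% in DDX17 deletion hgRNA 1 replicate 2 (2.1 to 2.2% in the other 3), 2.77% in HDAC7 deletion hgRNA 1 replicate 2 (1.92 to 2%) and 2.47% in FNBP4 PTC exon hgRNA 3 replicate 2 (1.86 to 1.96%). The first 2 of these libraries also had a GC and length trend that stood apart.

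Groups with the same gene edited, or of the same knockout design, differed by a direct test (limma) in 2 comparisons. With FNBP4 edited, 31 members were lower after the PTC exon deletion than after the intron deletion (16.7% of all genes lower). Among knockouts 9 members were lower in the DDX5 knockout than in the libraries labelled as the other 3 knockouts (0.795% of all genes lower), a count that lay between 0 (only the libraries compared) and 19 (without the 4 libraries that stand apart) in other fits.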

How the results depend on the processing

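No named member reversed its direction in 1113 alternative fits of 76 gene results: 928 kept the call and 185 lost it, the losses falling on 50 of the results. E2F1, CDC6, MCM10 and CCNE2 in the FNBP4 PTC exon deletion kept the call in all 15 alternatives. Fits with 1 control hgRNA as the only control were made for the counts alone. They are not among these alternatives of named members. With control hgRNA 2 as the only control, the members called were 3 (DDX5 intron), 3 (DDX17), 0 (FNBP4 intron), 17 (FNBP4 PTC exon), 2 (HDAC7) and 11 (HNRNPD) for the deletions and 5 (DDX5), 3 (DDX17), 0 (FNBP4) and 0 (HDAC7) for the knockouts. With control hgRNA 1 alone they were 6 for the HDAC7 deletion and 2, 0 and 2 for the DDX17, FNBP4 and HDAC7 knockouts. Fitting only the libraries compared gave 1 for the DDX17 deletion, 2 for FNBP4 intron, 2 for the HDAC7 deletion, 7, 1, 0 and 1 for the DDX5, DDX17, FNBP4 and HDAC7 knockouts and 0 for DDX5 against the other knockouts. Without trend removal the counts were 5, 8 and 7 for the DDX5 intron, DDX17 and HDAC7 deletions and 3 for DDX5 against the other knockouts. Without a filter they were 9 for the DDX17 deletion, 1 for the FNBP4 knockout and 5 for DDX5 against the other knockouts, and limma-trend gave 1 for the FNBP4 knockout. Without the 4 libraries that stand apart, chosen after seeing the data, they were 9 (DDX17 deletion), 8, 6 and 10 (DDX17, FNBP4 and HDAC7 knockouts) and 19 (DDX5 against the others).

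Leaving out each library in turn gave 4 to 8 (DDX5 intron), 6 to 14 (DDX17), 0 to 1 (FNBP4 intron), 18 to 29 (FNBP4 PTC exon), 4 to 15 (HDAC7) and 6 to 19 (HNRNPD) for deletions, 1 to 11 (DDX5), 0 to 5 (DDX17), 0 to 3 (FNBP4) and 0 to 6 (HDAC7) for knockouts, 23 to 30 for FNBP4 PTC exon against intron and 1 to 7 for DDX5 against the others. The 2 control hgRNAs stayed at 0. Splicing events called in members stayed at 0 with each edited library left out (no control library was left out there), and a minimum of 5 points gave 2. With the replicate number as a block, 28 members were called in the FNBP4 PTC exon deletion and 22 in the HNRNPD deletion, and no count of members called moved by more than 1.5 times (12, 5, 3 and 6 for the DDX5, DDX17, FNBP4 and HDAC7 knockouts). With the number as a block in the knockouts alone, added after seeing the data, the calls were 17, 7, 5 and 10 for the same knockouts and 18 for DDX5 against the others. The causes were not tested. Depth limits FEN1 most, at 32 to 190 reads.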

Other observations

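Replication-dependent histone genes, whose transcripts lack introns and poly(A) tails and are made in S phase, can be read only in the authors' deposited table. There the median log2 fold change over 62 histone genes was -0.52 with FNBP4 PTC exon hgRNA 3 and -0.30 with hgRNA 4, where 10 and 0 were lower and 3 and 0 higher at a false discovery rate under 0.05. In the authors' deposited table it was -0.40 and -0.70 for the DDX17 deletion and -0.41 and -0.57 for the DDX5 intron deletion, with 0, 0, 0 and 4 genes lower, and 0.52 for the DDX17 and 0.39 for the HDAC7 knockout, with 1 and 3 genes higher. It was -0.19 for the HNRNPD deletion, -0.02 for the DDX5 knockout and -0.22 and -0.32 for the HDAC7 deletion in the authors' deposited table, with 0 called in each. H4C14, which had a control level of 1415 RPKM in the authors' deposited table, was at 838 and 1033 RPKM in the FNBP4 PTC exon deletion (false discovery rates 0.0534 and 0.358).

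E2F7, which represses E2F targets, fell with the FNBP4 PTC exon deleted (log2 -0.71). In the same deletion CDKN2C, an inhibitor of CDK4 and CDK6, rose (log2 0.63), as did IMPDH2 of guanine nucleotide synthesis (log2 0.34), while NME1, a nucleoside diphosphate kinase, fell (log2 -0.49). In the HDAC7 deletion CDKN1B (p27) fell (log2 -0.48), and in the HNRNPD deletion it rose (log2 0.58).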
